A study of Mus musculus with 203 samples.

Results

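The effect of adding cigarette smoke (CS) to house dust mite (HDM) exposure was examined in the airways, by comparing the 10 libraries titled 11-Airway-HDM.CS with the 10 titled 11-Airway-HDM.AIR, 20 of the 160 libraries from week 11 in the series, which holds another 43 from week 3. The series profiled RNA from dissected airway and parenchyma of mouse lungs after 3 or 11 weeks. All mice of both groups were female Balb/C, 18-20 weeks old, and all received HDM intranasally, on 5 days per week for 3 weeks and then 3 times per week from week 4 to week 11. HDM.CS mice also breathed smoke for 8 weeks, 2 times on each of 5 days in a week, while HDM.AIR mice breathed normal air, and neither group received the glucocorticoid dexamethasone (DEX). HDM with smoke is the submitters' model of asthma-COPD overlap, and HDM with air that of asthma. Further airway groups of 10 libraries served as references: PBS.CS and PBS.AIR, which received phosphate buffered saline in place of HDM, and HDM.CS.DEX and HDM.AIR.DEX, treated with DEX during week 11.

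Cigarette smoke carries polycyclic aromatic hydrocarbons, which bind the aryl hydrocarbon receptor (AHR). The receptor then enters the nucleus, pairs with ARNT and switches on detoxifying enzymes such as Cyp1a1 from sites known as xenobiotic response elements, and it also acts in T cells that make interleukin-17 and interleukin-22. Repeated HDM is known to bring T cells, B cells, eosinophils and neutrophils into the airway wall, and lymphoid aggregates can form beside the bronchi.

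The total count per library was 25627264 to 40240680 (median 30748461.5) in HDM.CS and 23420597 to 32434934 (median 27061581) in HDM.AIR. The airway label was checked against marker lists. The summed level of 15 club cell genes, which mark the secretory cells of small airways, had a median of 28980 CPM (the count scaled to library size) in HDM.AIR airway and 17933 CPM in HDM.AIR parenchyma. Airway libraries nevertheless held alveolar RNA, since the alveolar type II list summed to a median of 35691 CPM in them and 46122 CPM in parenchyma. The HDM.AIR library X109 stood apart, with the lowest club cell sum (15331 CPM), the lowest ciliated cell sum (571.2 CPM) and the highest alveolar type II sum (50093 CPM) of its group. Counts without it are given over all genes, and for those lists refitted without it whose count changed. Each library carries its own code, and the labels do not say what the codes stand for. Unless stated otherwise, p-values rest on the spread between libraries within groups, estimated over all 80 airway libraries of week 11.

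Smoke added to HDM changed more genes downwards than upwards. Of 18015 genes tested by limma-voom, 847 rose (4.70%) and 1579 fell (8.76%) at a Benjamini-Hochberg adjusted p under 0.05, and the median log2 fold change (log2FC, HDM.CS less HDM.AIR) of all genes was -0.007. When the size of the log2FC also had to reach 1, 0.572% of genes rose and 1.81% (326) fell. In 52 genes (0.289%) all HDM.CS libraries lay above all HDM.AIR libraries, and in 100 (0.555%) all lay below. Without library X109, 863 genes rose and 1443 fell, and 0.544% rose and 1.92% fell by a log2FC of at least 1 in size. In a fit of the 20 libraries alone, without that limit, 7.81% rose and 9.50% fell. Detoxifying enzymes, red blood cell genes, endothelial genes and Il17f were on the rising side. Immunoglobulin, MHC class II, interferon-gamma response, cytotoxic lymphocyte and cell cycle genes were on the falling side.

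**Figure D1:**
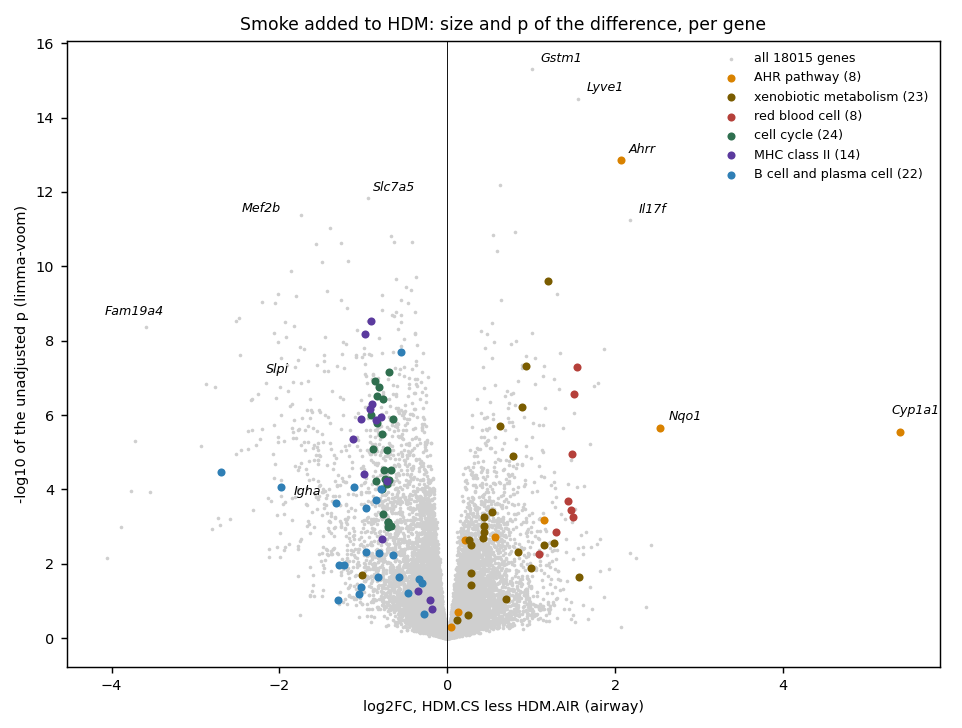
Each point is 1 of 18015 genes, with log2FC of HDM.CS less HDM.AIR on the x axis and -log10 of the unadjusted limma-voom p on the y axis, and members of 6 gene lists are coloured. Cyp1a1 lies farthest to the right (log2FC 5.39), Gstm1 is highest, and all 24 cell cycle genes and all 14 MHC class II genes lie left of 0.

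The promoters of 3 AHR target genes that rose are shown first, because the short core of the xenobiotic response element, GCGTG, lies in each of them. Each window holds 300 bases, from 250 before to 50 after the gene's start, from RefSeq on GRCm38.p6, written 5′ to 3′ on the gene's strand. Capitals mark GCGTG, or CACGC where the core lies on the other strand. Cyp1a1 is at chr9:57697363-57697662 on the plus strand, Ahrr at chr13:74292282-74292581 on the minus strand and Cyp1b1 at chr17:79715012-79715311 on the minus strand.
Cyp1a1: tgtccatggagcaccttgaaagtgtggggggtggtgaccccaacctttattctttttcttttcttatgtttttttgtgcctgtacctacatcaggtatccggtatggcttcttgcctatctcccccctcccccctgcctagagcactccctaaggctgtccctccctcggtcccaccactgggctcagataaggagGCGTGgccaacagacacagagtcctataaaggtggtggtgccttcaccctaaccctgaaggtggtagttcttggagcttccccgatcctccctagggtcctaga
Ahrr: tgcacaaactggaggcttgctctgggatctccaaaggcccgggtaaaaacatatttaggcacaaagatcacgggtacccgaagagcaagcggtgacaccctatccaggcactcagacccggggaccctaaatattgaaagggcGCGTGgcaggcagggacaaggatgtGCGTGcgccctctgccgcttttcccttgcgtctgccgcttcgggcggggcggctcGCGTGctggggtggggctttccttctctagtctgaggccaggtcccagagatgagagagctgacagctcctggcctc
Cyp1b1: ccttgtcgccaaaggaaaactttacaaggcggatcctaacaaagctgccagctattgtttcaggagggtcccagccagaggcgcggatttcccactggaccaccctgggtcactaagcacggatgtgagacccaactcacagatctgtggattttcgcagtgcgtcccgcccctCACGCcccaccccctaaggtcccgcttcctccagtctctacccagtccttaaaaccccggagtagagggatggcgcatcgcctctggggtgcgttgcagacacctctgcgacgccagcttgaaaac
The core begins 54 bases before the start of Cyp1a1 and 76 bases before that of Cyp1b1, and Ahrr holds 3 copies. It was found on either strand in 4 of the 5 promoters matched for AHR list genes that rose, and in 32.4% of all 32851 promoters, so a match describes these letters and no site. It was also in 12 of the 18 promoters matched for the cell cycle list.

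Genes of the AHR pathway rose, Cyp1a1 the furthest. Of the 8 tested, 6 rose and 0 fell, with a median log2FC of 0.86 against -0.007 over all genes, and 3 of the 6 had no overlap between groups. Cyp1a1 (chr9:57687928-57703824), the cytochrome P450 that oxidizes polycyclic hydrocarbons, ranged from 0.60 to 7.77 CPM (median 1.27) in HDM.AIR and from 16.7 to 214.0 CPM (median 49.2) in HDM.CS. Every HDM.CS library lay above every HDM.AIR library. Its log2FC was 5.39 ± 1.07 (SE, adjusted p = 1.6e-04, limma-voom), the largest rise among genes with a mean of at least 1 CPM in the higher group. When a CPM of at least 10 in 9 libraries was required of every gene, Cyp1a1 kept its log2FC (5.40) and its adjusted p was 0.15. Nqo1, a quinone reductase driven by both AHR and the antioxidant factor NRF2, ranged from 2.40 to 4.31 CPM (median 3.73) in HDM.AIR and from 7.54 to 41.4 CPM (median 23.7) in HDM.CS, again without overlap (log2FC 2.53 ± 0.49 SE, adjusted p = 1.3e-04). Ahrr encodes the repressor that limits AHR. It had a median of 0.61 CPM in HDM.AIR (0.33 to 1.54) and 2.82 CPM in HDM.CS (2.26 to 3.88), with separate groups and a log2FC of 2.07 ± 0.23 (SE, adjusted p = 8.4e-10). Aldh3a1, an aldehyde dehydrogenase (log2FC 1.15), Cyp1b1 (0.56) and Tiparp, a poly-ADP-ribose polymerase family member that restrains AHR (0.21), rose with overlap between groups. The receptor Ahr itself (0.13) and Arnt (0.04) did not pass the test.

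Other enzymes that act on foreign compounds moved the same way. Of 23 xenobiotic metabolism genes tested, 15 rose and 0 fell (median log2FC 0.53), and 10 rose without library X109. Cyp2f2 and Aldh1a1, which rose, are also on the club cell list, so the counts of the 2 lists share them. Ugt1a6a, a glucuronosyltransferase, had a median of 39.3 CPM in HDM.AIR (23.96 to 52.7) and 89.2 CPM in HDM.CS (62.2 to 121.9). The groups did not overlap (SE of the log2FC 0.16, adjusted p = 2.0e-07), though Ugt1a genes share their last exons, so its counts are uncertain. Aox1, an aldehyde oxidase, also separated the groups (log2FC 0.93, adjusted p = 8.2e-06), while Fmo1, a flavin monooxygenase, rose with overlap (0.89, adjusted p = 5.2e-05). The NRF2 antioxidant list moved less. Of its 31 genes 6 rose and 0 fell, and its median log2FC was 0.12. The 6 included the glutathione transferases Gstm1 and Gstp1 and the glutathione synthetase Gss. Gstm1 had the smallest p of all rising genes, with 134.4 to 232.7 CPM in HDM.AIR and 304.4 to 446.1 CPM in HDM.CS (medians 190.4 and 359.3), no overlap, and a log2FC of 1.01 ± 0.10 (SE, adjusted p = 9.1e-12). Gstp1 (log2FC 0.72, adjusted p = 5.6e-05) and Gss (0.44, adjusted p = 8.4e-05) did not overlap either. Glutathione transferases have close copies that can share reads. Hmox1, the haem oxygenase that NRF2 is best known for, had a log2FC of -0.35 (adjusted p = 0.27). Outside these lists, Thra, the thyroid hormone receptor alpha, rose from a median of 41.8 CPM to 61.8 CPM without overlap (log2FC 0.62, adjusted p = 2.9e-09).

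**Figure D2:**
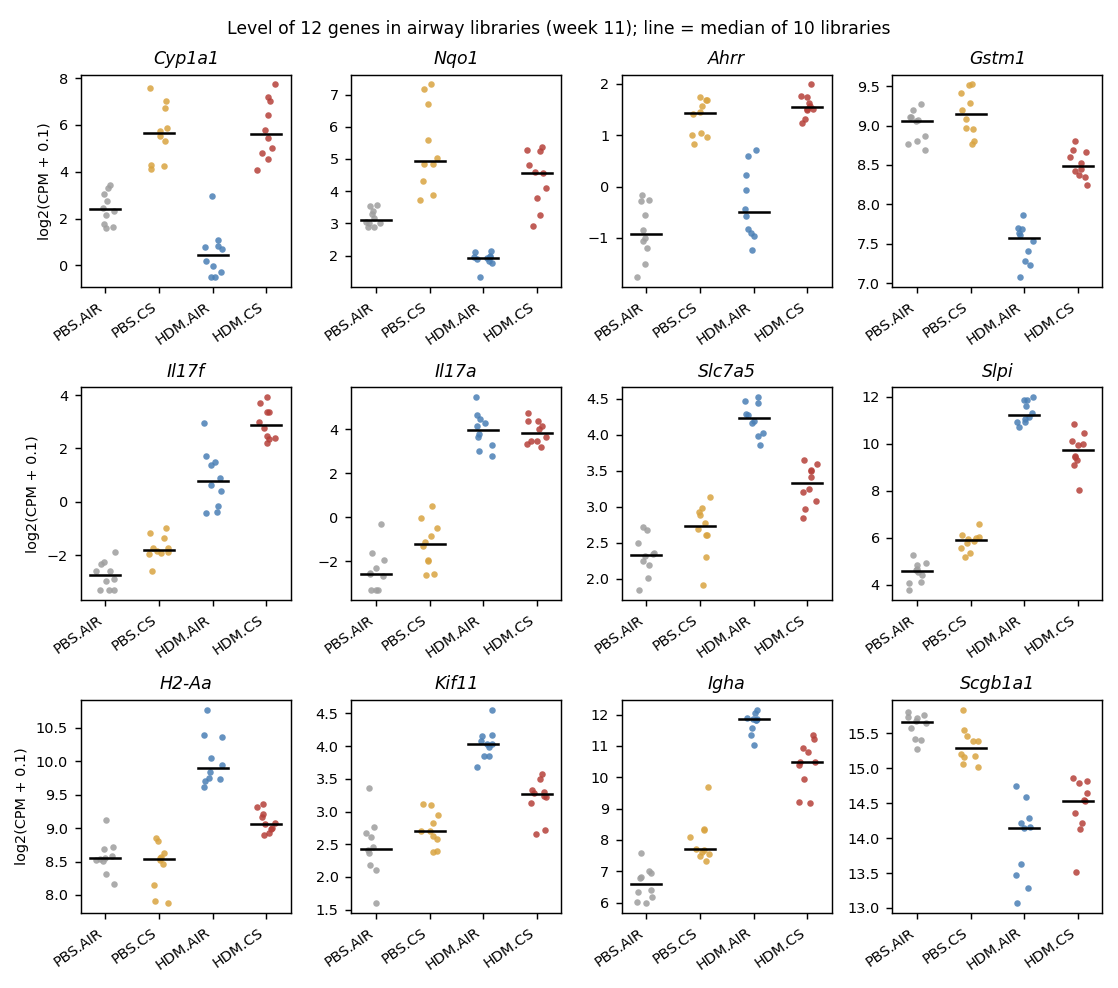
Each point is an airway library and the y axis is log2(CPM + 0.1) of 12 genes, for PBS.AIR, PBS.CS, HDM.AIR and HDM.CS (10 libraries each, line at the median). Cyp1a1, Nqo1, Ahrr and Gstm1 separate HDM.CS above HDM.AIR, Slc7a5, H2-Aa and Kif11 separate it below, and Il17f and Il17a differ in how they move.

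The IL-17 genes did not move together. Il17f, a cytokine that drives epithelial cells to recruit neutrophils, ranged from 0.65 to 7.72 CPM (median 1.61) in HDM.AIR and from 4.46 to 15.1 CPM (median 7.30) in HDM.CS. The groups overlapped only where the highest HDM.AIR library reached into the HDM.CS range (log2FC 2.17 ± 0.27 SE, adjusted p = 1.5e-08). Il17a, its close relative, had medians of 15.8 CPM in HDM.AIR and 14.2 CPM in HDM.CS, with broad overlap and a log2FC of -0.09 ± 0.21 (SE, adjusted p = 0.84). Gpr15, a receptor that guides T cells into mucosal tissue, rose from a median of 0.45 CPM (0.27 to 0.78) to 1.79 CPM (0.73 to 2.75), with a log2FC of 1.80 ± 0.31 (SE, adjusted p = 1.8e-05).

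Neutrophil genes and most of the signals that call neutrophils did not pass the test when smoke was added to HDM. Of 15 neutrophil genes 0 rose and 0 fell by limma-voom, 2 had an unadjusted p under 0.05, and 1 passed by edgeR and 1 by DESeq2. By limma-voom, of 16 neutrophil chemokines and growth factors, Il17f rose and Il6 fell. Il6 had a median of 1.10 CPM in HDM.AIR and 0.41 CPM in HDM.CS (log2FC -1.31, adjusted p = 1.2e-03). The neutrophil calgranulin gene S100a9 (log2FC -0.19, adjusted p = 0.77), the chemokine Cxcl1 (0.26, adjusted p = 0.62) and the growth factor Csf3 (-0.32, adjusted p = 0.68) overlapped between groups.

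B cell and plasma cell genes were lower with smoke. Of 22 tested, 11 fell and 0 rose, with a median log2FC of -0.91 and all 22 values below 0. Igha, the constant region of IgA, ranged from 2101.1 to 4545.7 CPM (median 3696.1) in HDM.AIR and from 584.4 to 2590.4 CPM (median 1441.0) in HDM.CS. The upper HDM.CS libraries reached the lowest HDM.AIR libraries, and the log2FC was -1.33 ± 0.34 (SE, adjusted p = 4.3e-03). Ighg2b (log2FC -1.98, adjusted p = 2.1e-03) and Ighg3 (-2.69, adjusted p = 1.0e-03), constant regions of IgG subclasses, fell as well. Xbp1, the factor that equips plasma cells for secretion, fell from a median of 479.7 CPM to 328.2 CPM (log2FC -0.55, adjusted p = 4.6e-06). Mzb1, a chaperone of antibody-secreting cells, had a log2FC of -1.11 (adjusted p = 2.1e-03) and Cd79a, part of the B cell receptor, one of -0.82 (adjusted p = 0.043). The joining chain Jchain (-1.24, adjusted p = 0.068), Ighm (-1.02, adjusted p = 0.17) and the B cell surface gene Ms4a1 (-0.83, adjusted p = 0.12) did not pass. Summed over the list, HDM.AIR libraries ranged from 27587 to 53927 CPM and HDM.CS libraries from 5900 to 31049 CPM. By edgeR 8 of the 22 fell, by DESeq2 9, and in a fit of the 20 libraries alone 18. In bulk libraries fewer cells of a type and less RNA per cell cannot be told apart.

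The largest falls of all were of immunoglobulin variable segments, the exons that B cells join to make each antibody. They made up 7 of the 8 largest, among them Igkv8-18 (log2FC -3.89), Ighv1-47 (-3.72), Igkv4-81 (-3.54), Igkv14-130 (-2.93), Ighv1-78 (-2.88) and Igkv4-90 (-2.80). Taken by symbol after these values had been seen, 79.6% of the variable segments tested fell and 0 rose, with a median log2FC of -1.55. Segments have near-identical copies and the reference genome is of another strain than Balb/C, so the level of a single segment is uncertain. The remaining gene of the 8 was Fam19a4, which encodes a small secreted protein, at a median of 1.47 CPM in HDM.AIR and 0.065 CPM in HDM.CS (log2FC -3.59 ± 0.54 SE, adjusted p = 1.5e-06).

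Genes that organize lymphoid tissue were also lower. Of 17 tested, 8 fell and 0 rose (median log2FC -0.64). Cxcl13, the chemokine that gathers B cells into follicles, ranged from 104.5 to 213.4 CPM (median 158.5) in HDM.AIR and from 22.5 to 128.8 CPM (median 79.2) in HDM.CS. Most HDM.CS libraries lay below all HDM.AIR libraries (log2FC -1.10, adjusted p = 0.035). Ccl19, a chemokine for T cells and dendritic cells (log2FC -1.35, adjusted p = 0.034), the follicular helper cytokine Il21 (-0.99, adjusted p = 9.5e-03) and Madcam1, a vascular address for lymphocytes (-2.71, adjusted p = 0.012), fell with overlap. Tnfsf13b, the B cell survival factor BAFF, separated the groups at medians of 11.8 CPM and 8.27 CPM (log2FC -0.56, adjusted p = 1.9e-04). This count was sensitive to the test and to single libraries: edgeR's quasi-likelihood test called 1 and DESeq2 2 of the 17, and 5, 5, 3 and 5 fell without HDM.CS libraries X57, X177 or X197 or HDM.AIR library X129. The genes with the smallest p among all that fell were Slc7a5, Mef2b, Gpr141b, Neil1 and Dck. Slc7a5, an amino acid transporter of growing cells, had a median of 18.7 CPM in HDM.AIR (14.4 to 22.9) and 9.98 CPM in HDM.CS (7.10 to 12.4). Its groups were separate, with a log2FC of -0.95 ± 0.11 (SE, adjusted p = 5.3e-09). Mef2b, a transcription factor of germinal centre B cells, fell by 1.75 on the log2 scale (adjusted p = 1.3e-08), and Gpr141b, annotated as a long noncoding RNA, by 1.397 (adjusted p = 2.1e-08). The DNA repair glycosylase Neil1 (log2FC -0.67, adjusted p = 2.4e-08) and the deoxycytidine kinase Dck (-0.63, adjusted p = 3.0e-08) changed less.

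Few T cell genes passed the test, and most cytotoxic lymphocyte genes did, a difference between the lists that was not itself tested. Of 20 T cell genes, 3 fell and 0 rose (1 by edgeR, 2 by DESeq2), 14 had an unadjusted p under 0.05, and all 20 values were below 0 (median log2FC -0.63). The 3 were the inhibitory receptor Pdcd1 (log2FC -0.97, adjusted p = 1.3e-05), the signalling adaptor Lat (-0.89, adjusted p = 0.011) and the IL-2 receptor chain Il2ra (-0.65, adjusted p = 0.024), and Cd3e had a log2FC of -0.59 (adjusted p = 0.098). Of 14 genes of cytotoxic lymphocytes, 11 fell and 0 rose, with a median of -0.88. Ccl5, a chemokine of cytotoxic T cells, had a median of 69.6 CPM in HDM.AIR (34.3 to 85.4) and 26.4 CPM in HDM.CS (12.4 to 52.03). The groups overlapped at their edges (log2FC -1.25 ± 0.29 SE, adjusted p = 1.6e-03). The granule gene Nkg7 (-0.86, adjusted p = 4.9e-03), the killer receptor Klrk1 (-0.74, adjusted p = 3.8e-03) and granzyme Gzmb (-0.70, adjusted p = 0.034) fell too. With edgeR or with DESeq2 5 of the 14 fell. Without HDM.CS library X177 it was 7, and without HDM.AIR library X109 it was 8.

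The interferon-gamma and CXCR3 genes fell in part. Of 19 tested, 11 fell and 0 rose (median log2FC -0.65). Cxcl9, a ligand that draws CXCR3-bearing T cells, ranged from 20.2 to 136.6 CPM (median 40.5) in HDM.AIR and from 6.06 to 37.8 CPM (median 14.8) in HDM.CS, a log2FC of -1.67 ± 0.38 (SE, adjusted p = 1.1e-03). Nos2, inducible nitric oxide synthase, had medians of 27.97 CPM and 12.4 CPM (log2FC -1.46, adjusted p = 2.3e-06). Cxcl10 (-0.996, adjusted p = 0.031) and Cxcl11 (-1.34, adjusted p = 0.019) fell, and Ifng itself had a log2FC of -0.65 (adjusted p = 0.16). Counts of 7, 7, 6, 5 and 5 fell without HDM.CS libraries X57 or X177 or HDM.AIR libraries X89, X109 or X129. With edgeR or DESeq2 9 fell, with sample quality weights 5, with either other filter on low counts 6, and with the 20 libraries alone 7. Of 20 type I interferon response genes 8 fell and 0 rose, led by the nucleic acid sensor Zbp1 (log2FC -1.23, adjusted p = 8.5e-06), Rtp4 (-0.56, adjusted p = 7.0e-03) and Ifi44 (-0.91, adjusted p = 0.011). Leaving out any of HDM.CS libraries X57, X117, X177 and X197 or HDM.AIR libraries X29, X109, X129 and X189 brought that count to between 3 and 5, as did edgeR (5) and sample quality weights (3).

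MHC class II genes, which present antigen to helper T cells, fell together. Their promoters are shown because the inverted CCAAT motif of the Y box, GATTGG, lies in 7 of the 8 promoters matched for the genes that fell, against 16.1% of all promoters. It was also in 12 of the 18 promoters matched for the cell cycle genes that fell and in 3 of the 7 for the interferon-gamma and CXCR3 genes that fell. H2-Aa lies at chr17:34287774-34288073 on the minus strand and H2-Eb1 at chr17:34305617-34305916 on the plus strand, and capitals mark GATTGG or, on the other strand, CCAATC.
H2-Aa: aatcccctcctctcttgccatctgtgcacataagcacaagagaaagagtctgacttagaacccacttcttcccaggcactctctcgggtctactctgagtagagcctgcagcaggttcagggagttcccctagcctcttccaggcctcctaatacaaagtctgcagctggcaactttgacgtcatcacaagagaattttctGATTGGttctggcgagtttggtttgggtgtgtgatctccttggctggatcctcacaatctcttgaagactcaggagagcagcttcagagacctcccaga
H2-Eb1: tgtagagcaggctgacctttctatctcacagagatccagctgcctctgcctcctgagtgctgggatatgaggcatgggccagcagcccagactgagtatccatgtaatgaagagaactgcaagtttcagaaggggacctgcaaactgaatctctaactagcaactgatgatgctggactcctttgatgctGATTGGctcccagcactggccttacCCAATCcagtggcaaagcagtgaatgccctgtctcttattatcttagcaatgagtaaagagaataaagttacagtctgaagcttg
Of 14 genes tested, 11 fell and 0 rose (median log2FC -0.88), and in 6 of them all HDM.CS libraries lay below all HDM.AIR libraries. H2-Aa, the alpha chain of I-A, ranged from 788.5 to 1744.8 CPM (median 954.2) in HDM.AIR and from 477.7 to 656.5 CPM (median 536.9) in HDM.CS, a log2FC of -0.92 ± 0.17 (SE, adjusted p = 5.9e-05). H2-Eb1 had a log2FC of -1.03 (adjusted p = 8.8e-05), H2-Ab1 one of -0.99 (adjusted p = 1.1e-03) and the peptide-loading gene H2-DMb1 one of -0.91 (adjusted p = 1.2e-06). Cd74, the invariant chain that escorts class II molecules, fell from a median of 2638.5 CPM to 1312.2 CPM without overlap (log2FC -0.99, adjusted p = 2.0e-06). Ciita, the master regulator of these genes, fell without overlap from 64.7 CPM to 37.6 CPM (log2FC -0.89, adjusted p = 4.7e-05). Leaving out single libraries left 10 or 11 of the 14.

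Cell cycle genes fell without exception among the 24 tested (median log2FC -0.75), and in 7 the groups did not overlap. Promoters of Plk1 and Cdc20, kinase and ubiquitin ligase activator of mitosis, are shown for the cell cycle homology region, TTTGAA, in capitals. It was present in 11 of the 18 promoters matched for this list and in 17.9% of all promoters. Plk1 lies at chr7:122159185-122159484 on the plus strand and Cdc20 at chr4:118437294-118437593 on the minus strand.
Plk1: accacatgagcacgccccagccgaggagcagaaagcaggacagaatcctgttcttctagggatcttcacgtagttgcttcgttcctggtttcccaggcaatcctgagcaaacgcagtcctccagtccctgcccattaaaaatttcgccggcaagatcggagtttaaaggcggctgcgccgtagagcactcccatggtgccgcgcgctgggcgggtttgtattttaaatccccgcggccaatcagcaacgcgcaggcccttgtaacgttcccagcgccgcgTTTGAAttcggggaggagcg
Cdc20: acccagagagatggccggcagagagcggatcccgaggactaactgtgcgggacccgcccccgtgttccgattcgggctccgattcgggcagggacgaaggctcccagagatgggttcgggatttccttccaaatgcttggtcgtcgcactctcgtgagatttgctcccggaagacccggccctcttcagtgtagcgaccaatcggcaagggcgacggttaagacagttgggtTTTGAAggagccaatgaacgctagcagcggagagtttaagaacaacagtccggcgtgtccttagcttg
Kif11, a mitotic kinesin, ranged from 12.7 to 23.4 CPM (median 16.3) in HDM.AIR and from 6.20 to 11.8 CPM (median 9.49) in HDM.CS, with no overlap (log2FC -0.86 ± 0.15 SE, adjusted p = 1.6e-05). The replication helicase gene Mcm5 (log2FC -0.69, adjusted p = 1.1e-05) and the spindle checkpoint kinase Bub1b (-0.81, adjusted p = 2.1e-05) separated the groups too, as did Plk1 (-0.91, adjusted p = 7.8e-05). Cdc20 (-0.72, adjusted p = 1.7e-03) and the proliferation marker Mki67 (-0.71, adjusted p = 0.010) fell with overlap. All 24 fell whichever single library was left out, 20 fell by edgeR and by DESeq2, and 10 fell with a CPM of at least 10 required, where fewer of them were tested.

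Lists of type 2 inflammation moved unevenly. Of the type 2 cytokine and receptor list 7.14% fell, against 8.76% of all genes. Of the eosinophil and eotaxin list and of the alternatively activated macrophage list 25% each fell. Of 14 type 2 cytokine and receptor genes 1 fell, the growth factor Areg (log2FC -0.73, adjusted p = 0.026). Il4 was low, with medians of 0.54 CPM in HDM.AIR and 0.29 CPM in HDM.CS (log2FC -0.83, adjusted p = 0.062). Of 12 eosinophil and eotaxin genes 3 fell, and 10 of the 12 values were below 0 (median log2FC -0.45). The 3 that fell were Ccl22, a chemokine for CCR4-bearing T cells (log2FC -1.02, adjusted p = 1.9e-03), its fellow Ccl8 (-0.82, adjusted p = 0.048) and the receptor Ccr8 (-0.84, adjusted p = 0.011). All 3 act on T cells as well. By limma-voom no other tested gene of the list passed, and the eotaxin Ccl11 had a log2FC of 0.36 (adjusted p = 0.55). Of 13 monocyte chemokine genes 2 fell, Ccl5 among them. Among 16 genes of alternatively activated macrophages the lectin Mgl2 (-0.58, adjusted p = 0.027), the transcription factor Irf4 (-0.79, adjusted p = 3.8e-04) and Ccl22 were among 4 that fell, with the chitinase-like Chil4 (-1.99), and the scavenger receptor Stab1 rose (0.47, adjusted p = 1.3e-03). Of 22 lipid-laden macrophage genes the fatty acid carrier Cd36 (0.59, adjusted p = 4.4e-08) and the lipid droplet protein Plin2 (0.39, adjusted p = 0.048) rose. Dcstamp, a gene for the fusion of macrophages into giant cells, fell from a median of 9.71 CPM (5.15 to 24.3) to 3.15 CPM (1.45 to 7.48), a log2FC of -1.87 ± 0.25 (SE, adjusted p = 1.2e-07). The metalloelastase Mmp12 (log2FC -0.77, adjusted p = 0.12) and Gpnmb (0.37, adjusted p = 0.46) overlapped, and of 12 alveolar macrophage genes the ribonuclease Ear1 rose (1.24, adjusted p = 1.9e-03).

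In the epithelium, club cell genes rose and some mucus genes fell. Of 15 club cell genes 6 rose and 0 fell (median log2FC 0.40), and 3 rose without library X109 or by edgeR. Cyp2f2 had medians of 911.7 CPM in HDM.AIR and 1395.5 CPM in HDM.CS (log2FC 0.62, adjusted p = 1.2e-04), Aldh1a1 a log2FC of 0.79 (adjusted p = 4.7e-04) and Cckar one of 0.50 (adjusted p = 9.3e-03). Bpifa1, a secreted defence protein, ranged from 26.3 to 1875.7 CPM in HDM.AIR and from 570.1 to 4606.6 CPM in HDM.CS (log2FC 1.65, adjusted p = 0.016). Scgb1a1, the main club cell secretoglobin, had a log2FC of 0.48 (adjusted p = 0.029) and lost the call when any of 7 single libraries, 3 of HDM.CS and 4 of HDM.AIR, was left out. Of 19 mucus cell genes 3 fell and 2 rose. Clca1, a secreted regulator of goblet cells, ranged from 21.6 to 1678.0 CPM (median 430.8) in HDM.AIR and from 3.69 to 484.4 CPM (median 60.2) in HDM.CS, a log2FC of -2.31 ± 0.62 (SE, adjusted p = 5.9e-03). The trefoil peptide Tff1 (-1.28, adjusted p = 0.010) and the sialyltransferase St6gal1 (-0.38, adjusted p = 2.5e-03) fell, and Ano1, a chloride channel (0.21, adjusted p = 0.047), and the granule protein Sytl2 (0.35, adjusted p = 0.036) rose. The gel-forming mucin Muc5ac had medians of 58.2 CPM and 24.4 CPM (log2FC -0.80, adjusted p = 0.051). Of 24 ciliated cell genes and of 13 basal and squamous genes 0 passed by limma-voom, edgeR or DESeq2, and 0 had an unadjusted p under 0.05. Slpi, an inhibitor of neutrophil elastase, was the single one of 21 matrix protease and inhibitor genes that passed, ranging from 1672.2 to 4080.6 CPM (median 2396.5) in HDM.AIR and from 259.7 to 1837.4 CPM (median 861.8) in HDM.CS. The groups overlapped in a narrow range (log2FC -1.66 ± 0.28 SE, adjusted p = 1.6e-05).

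Smooth muscle and endothelial genes were higher in part, and matrix genes moved both ways. Where in the dissected tissue these genes were expressed was not tested. Of 25 collagen and fibrosis genes 3 rose (12%) and 1 fell (4%), beside 4.70% and 8.76% of all genes. In this list 16 values were above 0 and 9 below (median log2FC 0.04). Eln, which encodes elastin, had medians of 58.4 CPM in HDM.AIR and 151.3 CPM in HDM.CS (log2FC 1.01 ± 0.25 SE, adjusted p = 2.7e-03), and Col8a1 (0.82, adjusted p = 2.9e-06) and Col6a3 (0.51, adjusted p = 2.0e-03) rose while Col15a1 fell (-0.56, adjusted p = 0.023). Of 16 smooth muscle genes 3 rose, Mylk (0.43, adjusted p = 1.3e-03), Tagln (0.73, adjusted p = 0.030) and Myh11 (0.78, adjusted p = 0.031), with Acta2 at 0.65 (adjusted p = 0.087). All 16 values were above 0 (median log2FC 0.57). Myh11 lost its call in 8 of the alternative fits and Tagln in 6. Of 21 receptors that set bronchial tone, 2 rose (9.52%) and 1 fell (4.76%), with a median log2FC of 0.10. The endothelin receptor Ednrb was among the 2 (0.89, adjusted p = 8.7e-06), and the prostaglandin E2 receptor Ptger4 fell (-0.46, adjusted p = 7.1e-03). Ednrb is also on the endothelium list, of which 10 of 22 genes rose and 0 fell (median log2FC 0.42), with the angiopoietin receptor Tek at 0.89 (adjusted p = 7.0e-04) and Vwf at 0.69 (adjusted p = 1.5e-03). In parenchyma 14 of these 22 genes were higher with smoke (median log2FC 0.61). Lyve1, a hyaluronan receptor of lymphatic vessels and some macrophages, ranged from 29.9 to 76.95 CPM (median 55.02) in HDM.AIR and from 97.02 to 269.2 CPM (median 150.6) in HDM.CS. The groups did not overlap (log2FC 1.56 ± 0.16 SE, adjusted p = 2.8e-11). Alveolar type I genes had 2 of 12 rising, Cav1 (0.58) and Hopx (0.53), and of 15 alveolar type II genes 0 passed by limma-voom, edgeR or DESeq2, with 2 at an unadjusted p under 0.05.

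Among lists of other tissues the red blood cell list moved as a whole. The muscle, Schwann cell, mast cell and thymocyte lists had 1 or 2 members that passed, beside 4.70% of all genes that rose and 8.76% that fell. The part of these lists in the results above was not tested. All 8 red blood cell genes rose (median log2FC 1.48), among them the haem synthesis enzyme Alas2 (1.51) and haemoglobin Hbb-bt (1.49), and the summed list ranged from 1304 to 3551 CPM in HDM.AIR and from 3203 to 7793 CPM in HDM.CS. Haemoglobin genes have near-identical copies that can share reads. The endothelium list summed to 1700 to 2881 CPM in HDM.AIR and 1996 to 3653 CPM in HDM.CS, and the club cell list to 15331 to 40551 CPM and 26851 to 48931 CPM. The cardiac muscle list, from cells in the walls of large pulmonary veins, summed to 153.2 to 813.6 CPM and 293.1 to 1266 CPM. Of its 16 genes 1 rose (Gja5, 0.61), and all 16 values were above 0 (median log2FC 0.76). Of 10 skeletal muscle genes Mylpf (0.51, adjusted p = 0.038) and Acta1 (2.18, adjusted p = 0.041) rose, of 12 Schwann cell genes Prx (0.68) and Pmp22 (0.50), and of 12 mast cell and basophil genes Kit (0.63) and Gata2 (0.67). Of 6 thymocyte genes Dntt fell (-1.67). Among 16 adipose, 13 cartilage, 5 thyroid, 20 oxidative phosphorylation and 20 cholesterol and fatty acid synthesis genes 0 passed by limma-voom and 0 had an unadjusted p under 0.05, and DESeq2 alone called 1, of the adipose list. All 16 adipose values were nevertheless above 0 (median log2FC 0.79). The adipose list summed to 139.5 to 479.9 CPM in HDM.AIR and 211.4 to 1213 CPM in HDM.CS. Dusp1 rose (0.46) and Atf3 fell (-0.48) among 22 immediate early and heat shock genes, and Dusp1 was the 1 of 19 glucocorticoid response genes that passed. Of 19 circadian clock genes 1 fell and 0 rose. No listed marker of red blood cells, endothelium, club cells or B cells was at 0 in all libraries of either group. Awat1, a wax ester synthase (1.82, adjusted p = 0.022), and Tcf23, a helix-loop-helix factor (1.75, adjusted p = 2.0e-05), completed the 8 largest rises. The HDM.CS range of Awat1 (1.81 to 12.8 CPM) lay within its HDM.AIR range (0.10 to 18.5 CPM). Its call was lost in 6 of the alternative fits.

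**Figure D3:**
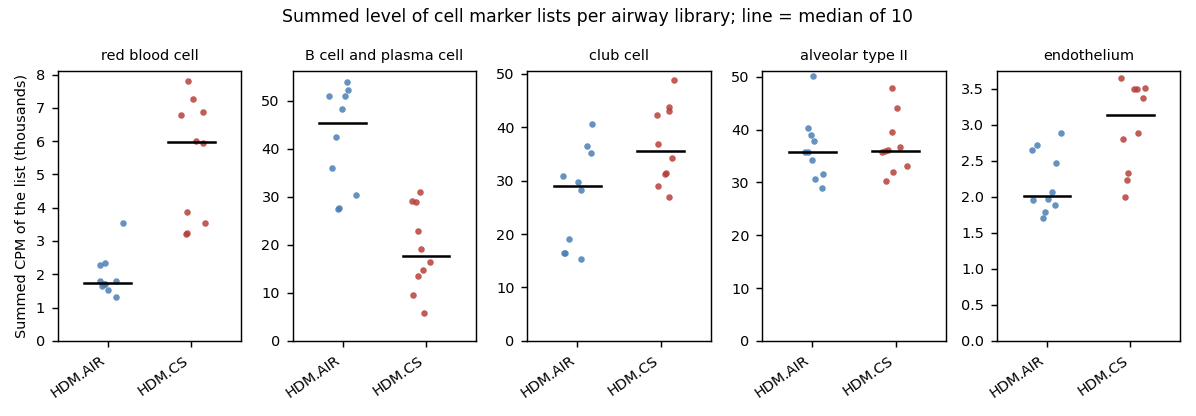
Each point is an airway library and the y axis is the summed CPM, scaled as the axis label says, of 5 marker lists in HDM.AIR and HDM.CS (line at the median of 10). The red blood cell and endothelium sums shift up, the B cell and plasma cell sum shifts down, and the alveolar type II medians are alike (35691 and 35975 CPM).

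Smoke without HDM gave another picture. Between PBS.CS and PBS.AIR, 1210 genes were higher (6.72%) and 862 lower (4.78%). The difference of the smoke effects, tested as an interaction (HDM less PBS), passed in 1025 genes with a higher effect under HDM (5.69%) and 1820 with a lower one (10.1%). These groups share no library with HDM.CS and HDM.AIR, but the interaction contains the HDM comparison. AHR genes rose in both settings: 5 of 8 were higher in PBS.CS, with a median log2FC of 0.97. Cyp1a1 ranged from 2.94 to 10.7 CPM in PBS.AIR and from a lowest library of 17.1 CPM upwards in PBS.CS, a log2FC of 3.19 (adjusted p = 7.7e-04), and the difference from the effect under HDM had an adjusted p of 0.25. Ahrr (2.45 without HDM), Nqo1 (2.19) and Gpr15 (1.84) gave adjusted p of 0.49, 0.76 and 0.97 for the difference. Cyp1b1 rose less under HDM (0.56 against 1.30, adjusted p = 0.034).

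Gene lists of inflammation differed between the settings. Of 15 neutrophil genes 12 were higher in PBS.CS, and for 8 the effect was lower under HDM. Under HDM itself 0 passed by limma-voom, 1 by edgeR and 1 by DESeq2. Cxcl1 ranged from 3.70 to 7.57 CPM in PBS.AIR and from 17.2 to 68.7 CPM in PBS.CS, apart from each other (log2FC 2.74), and in HDM.AIR it was already at a median of 21.8 CPM. The interaction was -2.49 (adjusted p = 9.6e-05). For Mmp12 the effects were 2.48 without and -0.77 with HDM (interaction -3.25, adjusted p = 7.2e-08), and for Gpnmb 2.66 and 0.37 (interaction -2.30, adjusted p = 1.8e-05). Slpi rose without HDM (1.31) and fell with it (interaction -2.97, adjusted p = 6.8e-09), as did Igha (1.38, interaction -2.71, adjusted p = 3.3e-06), Il6 (1.17, interaction -2.48, adjusted p = 9.9e-05), Ccl22 (1.67, interaction -2.69, adjusted p = 3.3e-07) and Pdcd1 (1.07, interaction -2.04, adjusted p = 4.7e-05). For 11 of 14 MHC class II genes and 23 of 24 cell cycle genes the effect was lower under HDM, while the lists' median effects without HDM were 0.05 and 0.45. Cytotoxic genes fell in both, with 10 of 14 lower in PBS.CS (median -0.80) and 0 of 14 differing by limma-voom or edgeR (1 at an unadjusted p under 0.05). Among xenobiotic metabolism genes, 12 of 23 had a higher effect under HDM, and the median effect without HDM was -0.11. Gstm1 had a log2FC of 0.16 without HDM (adjusted p = 0.40, interaction 0.85, adjusted p = 1.8e-05) and Lyve1 one of -0.07 (adjusted p = 0.88, interaction 1.62, adjusted p = 4.2e-07).

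**Figure D4:**
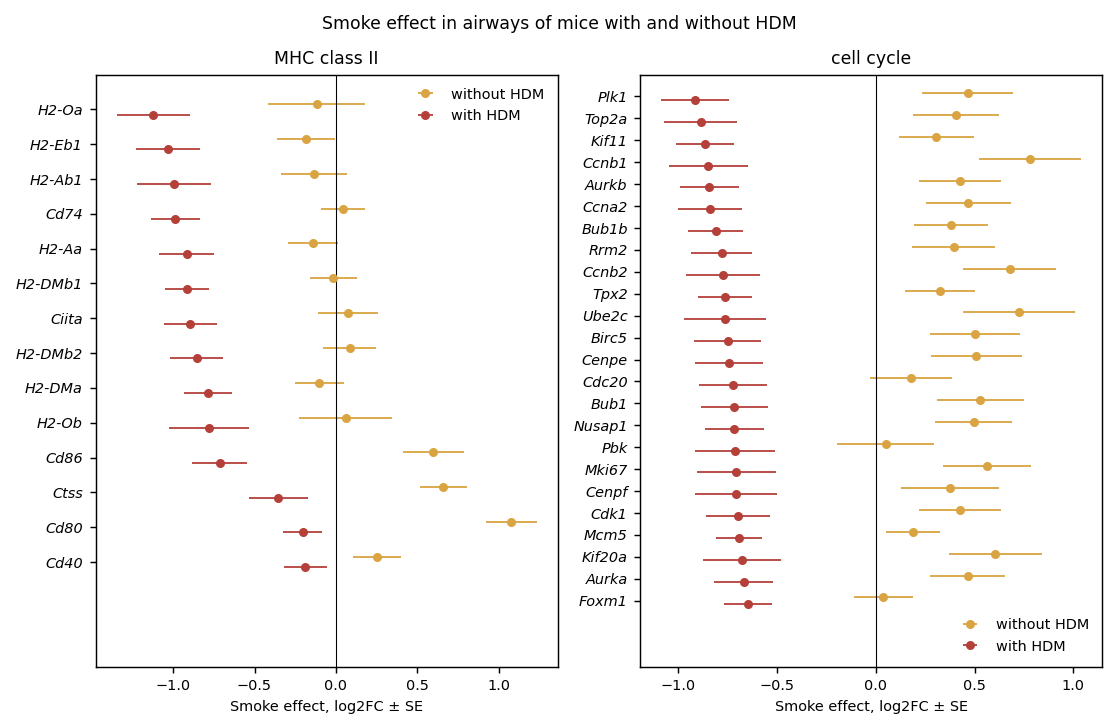
Points are the smoke effect (log2FC ± SE) of each MHC class II and cell cycle gene in airways of mice without HDM (PBS.CS less PBS.AIR) and with HDM (HDM.CS less HDM.AIR). With HDM every gene of both lists lies below 0, and without HDM all 24 cell cycle genes lie above 0.

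The genes whose smoke effect differed between the settings with the smallest p were Upk1a, Palmd and Gstk1 (higher under HDM) and Clmp, Tnip1 and Hpgds (lower). Upk1a, a uroplakin of barrier epithelia, was at 2.32 to 3.44 CPM in PBS.AIR and 0.45 to 1.27 CPM in PBS.CS (log2FC -2.05), while it stayed under 1 CPM in all HDM.AIR and HDM.CS libraries (log2FC 0.31, adjusted p = 0.33). Palmd (effects -0.65 without and 0.29 with HDM) and Gstk1, a mitochondrial glutathione transferase (-0.27 and 0.54), turned from a fall to a rise. Clmp, an adhesion molecule (1.73 and -0.04), and Hpgds, a prostaglandin D2 synthase of haematopoietic cells (1.59 and 0.08), rose without HDM alone, and Tnip1, a brake on NF-kappa-B signalling, rose without HDM (0.60) and fell with it (-0.23).

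**Figure D5:**
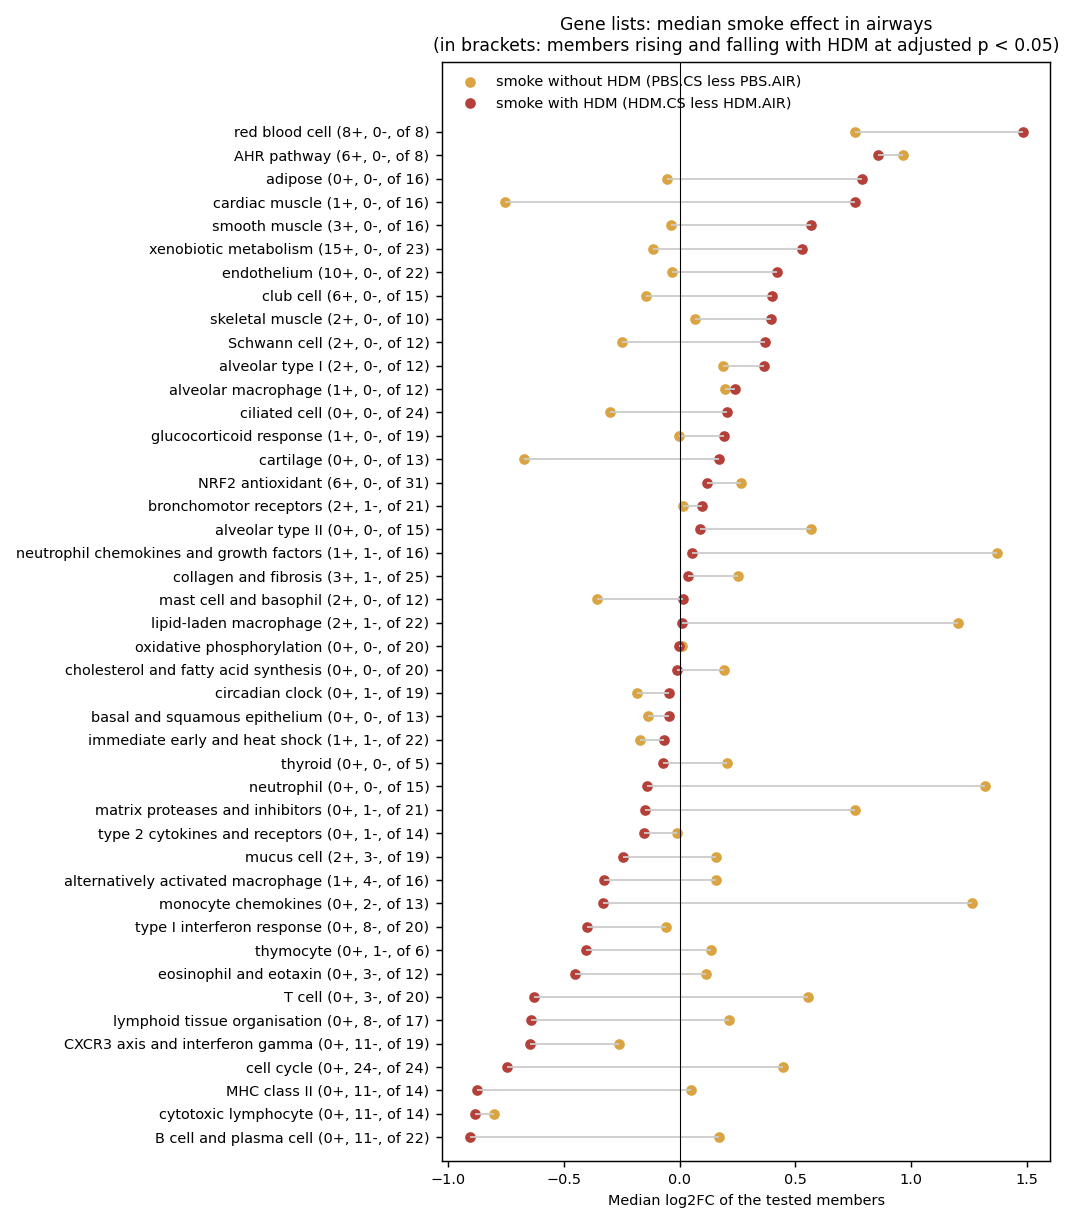
The x axis is the median log2FC of the tested members of each of 44 lists, for smoke without HDM and smoke with HDM, and brackets give how many members rose and fell with HDM. The neutrophil, neutrophil chemokine and lipid-laden macrophage lists lie above 1 without HDM and near 0 with it, and the AHR and cytotoxic lists have like medians in both settings.

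HDM alone had moved many of the same lists, and the values are set side by side because the HDM.AIR libraries enter both differences. HDM.AIR less PBS.AIR had a median log2FC of -1.52 over xenobiotic metabolism genes, -1.47 over club cell genes and -1.52 over red blood cell genes, which were 0.53, 0.40 and 1.48 for smoke under HDM. It was 1.69 for cell cycle, 1.59 for MHC class II and 2.499 for B cell and plasma cell genes, against -0.75, -0.88 and -0.91. Group medians of Gstm1 were 535.0 CPM in PBS.AIR, 190.4 CPM in HDM.AIR and 359.3 CPM in HDM.CS, and those of Slpi were 24.3, 2396.5 and 861.8 CPM.

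With DEX, fewer genes changed. Between HDM.CS.DEX and HDM.AIR.DEX 1.13% of genes were higher and 2.33% (419) lower. The smoke effect differed from that without DEX in 87 genes with a higher value (0.483%) and 14 with a lower one (0.0777%). Psat1, of serine synthesis, rose with DEX (log2FC 0.42) and fell without it (-0.40), a difference of 0.83 ± 0.14 (SE, adjusted p = 7.8e-04). The DNA ligase Lig1 (0.09 with and -0.49 without DEX, adjusted p = 1.6e-03), the DNA methylation maintenance gene Uhrf1 (0.34 and -0.81, adjusted p = 4.3e-03) and Mcm5 (0.23 and -0.69, adjusted p = 6.5e-03) fell without DEX, and with DEX they did not pass the test. Gstm1 (0.20 and 1.01, adjusted p = 1.2e-03), the dipeptidase Dpep1 (-0.31 and 1.04, adjusted p = 1.2e-03) and Thra (0.10 and 0.62, adjusted p = 5.0e-03) had lower effects with DEX. For Cyp1a1 the effect with DEX was 1.05 (adjusted p = 0.37), and the difference had an adjusted p of 0.070.

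In parenchyma 1832 genes were higher (10.0%) and 2574 lower (14.1%) of 18250 in HDM.CS against HDM.AIR. In the same fit of 160 libraries, 6.07% were higher and 10.1% lower in airway. The airway effect less the parenchyma effect passed in 0 genes in either direction by limma-voom (0% of 18250), with 326 at an unadjusted p under 0.05. By edgeR 64 genes passed, all with a higher airway value, and 9 of them were on the skeletal muscle list. That list summed to a median of 5.83 CPM in HDM.AIR parenchyma and to 4880 CPM in 1 library of that group, X70. Without X70, 0 genes passed by edgeR and 0 by limma-voom, and within pairs of airway and parenchyma libraries with neighbouring codes 0 passed by limma (831 at an unadjusted p under 0.05). Both checks were chosen after the data were seen. The smallest p had Msantd3, Ass1 and Tpm2 among higher and Casp14, Card14 and Stox1 among lower differences. Ass1, an enzyme of arginine synthesis, had a log2FC of -0.64 in airway and -1.32 in parenchyma, and Casp14, a caspase of cornified epithelium, one of -1.31 and 0.96. AHR genes had a median log2FC of 1.06 in parenchyma, MHC class II genes one of -1.03 and cell cycle genes one of -0.68.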

How the data were processed

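RNA from airway and parenchyma was sequenced as 100 bp single reads. The submitters' processing notes list bcl2fastq 2.20.0.422, STAR 2.5.1b, RSEM 1.2.31, kallisto 0.44.0 and mm10; which quantifier gave the table, and whether strand was used, is not given in the sources used here. The authors deposited estimated counts for 43346 identifiers, with 20.3% of non-zero values not whole and 0 rows naming no gene, and these were rounded here. Symbols came from GENCODE M21 (42462 identifiers matched without version, 23106 with it). Genes with near-identical copies, and overlapping genes, are uncertain. No library pair of a group agreed within sampling noise (lowest chi-square per gene 32.33).

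Genes with the CPM equivalent of 10 counts in at least 9 libraries were fitted with limma-voom (limma 3.58.1, edgeR 4.0.16, R 4.3.3; TMM, 1 mean per group, 80 airway libraries at week 11; the tissue comparison used 160). Called genes had a Benjamini-Hochberg adjusted p under 0.05. As alternatives, DESeq2 1.42.0, the quasi-likelihood test of edgeR, DESeq2 size factors, other filters, sample weights, other sets of libraries and leaving out each library were tried. Airway and parenchyma libraries with neighbouring codes were taken as pairs in an added fit, because their deviations from the group means correlated above 0.1 in 10 of 10 pairs of each group; the labels do not state a pairing. The scripts were tested on simulated data. Genes were named by size of change (mean of at least 1 CPM), by smallest p, by list and by interaction p, and further list members were added after their values were seen. The comparison and the lists were chosen with earlier results of these data known. One kappa segment among the largest falls is not named, and some list members that passed are not reported here. Figures used Python 3.11.15.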

Additional observations from a re-analysis of the deposited data

Results flagged for a closer look

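Within the groups of 10 libraries, the highest or lowest library of several genes lay far from its neighbour. The gap was above Dixon's critical value on the log2(CPM + 0.1) scale, which chance gives in about 1 of 20 groups. Many named genes were checked in HDM.AIR and HDM.CS, and that rate alone would give about as many gaps as are listed here. The gaps therefore do not by themselves set a library apart. HDM.AIR library X109 had the lowest Bpifa1 (26.3 CPM) and the highest Cd74 (4454 CPM), H2-DMb1 (151.9 CPM) and Hopx (440 CPM). HDM.AIR library X89 had the lowest Ano1 (55.8 CPM) and Aox1 (23.4 CPM) and the highest Ccl19 (117.1 CPM) and Madcam1 (4.11 CPM). HDM.AIR library X49 had the highest Cyp1a1 (7.77 CPM) and the lowest Nqo1 (2.40 CPM). In HDM.CS, library X57 had the lowest Ccl8 (22.8 CPM), Cxcl10 (1.03 CPM) and Il21 (0.564 CPM), X117 the lowest Eln (53.1 CPM), X77 the highest Igkv4-81 (0.788 CPM) and X157 the highest Madcam1 (1.35 CPM).

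The smoke effect differed between airways with and without HDM at an adjusted p under 0.05 (limma-voom interaction) in 77 of the genes named. The values that follow are the effect with HDM less that without, on the log2 scale. Among genes of division and growth they were Plk1 -1.38, Mki67 -1.27, Uhrf1 -1.21, Bub1b -1.19, Kif11 -1.17, Cdc20 -0.90, Mcm5 -0.88, Psat1 -0.60, Lig1 -0.46, Dck -0.79, Slc7a5 -1.32 and Neil1 -0.72. MHC class II genes gave Cd74 -1.03, Ciita -0.97, H2-DMb1 -0.90, H2-Ab1 -0.86, H2-Eb1 -0.85 and H2-Aa -0.78. Among B cell and lymphoid genes they were Madcam1 -3.48, Ighg2b -3.10, Ccl19 -2.84, Igha -2.71, Jchain -1.89, Mef2b -1.80, Mzb1 -1.35, Tnfsf13b -0.77 and Xbp1 -0.63, and among T cell, dendritic and interferon genes Ccl22 -2.69, Pdcd1 -2.04, Il2ra -1.22, Lat -1.17, Irf4 -1.14, Cd3e -1.13 and Zbp1 -1.09. Macrophage, neutrophil and epithelial defence genes gave Dcstamp -3.40, Mmp12 -3.25, Slpi -2.97, Cxcl1 -2.49, Il6 -2.48, Gpnmb -2.30, S100a9 -1.57, Hpgds -1.51, Tnip1 -0.83 and Hmox1 -0.95. Values above 0 were found for epithelial and detoxifying genes, Scgb1a1 0.75, Cyp2f2 1.13, Aldh1a1 0.94, Aox1 0.61, Fmo1 1.16, Gstm1 0.85, Gstk1 0.81 and Dpep1 0.80. Vessel, matrix and other genes above 0 were Lyve1 1.62, Vwf 1.25, Ednrb 1.203, Tek 1.06, Prx 0.97, Cav1 0.83, Gja5 0.78 and Col8a1 1.00. The others below 0 were Awat1 -4.27, Fam19a4 -2.74, Card14 -1.23, Clmp -1.77, Col15a1 -0.79, Cyp1b1 -0.74, Ptger4 -0.69 and St6gal1 -0.53, and the others above 0 Cd36 0.32, Dusp1 0.64, Ear1 1.45, Gata2 1.05, Palmd 0.93, Stox1 0.53, Tcf23 1.99, Thra 0.35 and Upk1a 2.36.

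The smoke effect with DEX less that without differed in 13 of the genes named, at Dck 0.58, Dpep1 -1.36, Dusp1 -0.83, Gstm1 -0.81, Il6 1.76, Kif11 1.10, Lig1 0.58, Mcm5 0.92, Neil1 0.62, Psat1 0.83, Slc7a5 0.85, Thra -0.52 and Uhrf1 1.15 on the log2 scale.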

How the results depend on the processing

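Results over all genes are given as percent of the genes tested. With only the 20 libraries compared in the fit, 7.81% of genes rose (4.70% before) and 9.50% fell (8.76% before). With a CPM of at least 10 required, 0.276% rose and 1.30% fell by a log2FC of at least 1 in size, where fewer genes were tested. The share whose smoke effect differed with DEX was 0.361% by edgeR, 0.938% by DESeq2, 0.186% without a filter, 0.334% with all 160 libraries in the fit and 0.999% with the replicate block by code set, against 0.561%, and the cause was not tested. The share whose effect differed between airway and parenchyma was 0.351% by edgeR and 0 without parenchyma library X70, an alternative chosen after the data were seen. Leaving out each library in turn gave 3.40% to 5.02% rising and 6.87% to 9.16% falling, and 0.444% to 0.627% and 1.47% to 1.98% by a log2FC of at least 1 in size. Clmp and Il17a, neither past the threshold, changed sign: Clmp was 0.006 and Il17a 0.177 with sample quality weights, and leaving out single libraries took Clmp from -0.078 to 0.017 and Il17a from -0.217 to 0.083. Over the named genes and 29 settings, 3947 of 4248 values kept direction and side of the threshold, 257 lost the call, 38 gained it and 6 changed sign, and 41 genes lost it in at least 1 setting, most often Ano1 (17), Cd79a and Ccl8 (16 each), Mylpf (15) and Plin2 (14). Codes run in sets of 20 that hold 1 library of each week 11 group, and the labels do not say what a set is. In 5 of 10 sets the HDM.CS and HDM.AIR deviations correlated above 0.1, so a set was not taken as a pairing. With it as a replicate block, an alternative chosen after the data were seen, 6.90% of genes rose and 10.2% fell, Ccl19 lost its call, and Jchain and Mmp12 gained one. Genes under a few CPM rest on few counts.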
